A study of Rattus norvegicus with 10 samples.

Results

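Mybl1 and 7 genes known from dividing cells (Ccnd1, Tk1, Pcna, Mcm6, Cks2, Hmgb2 and Stmn1) were followed in the livers of 10 Wistar Han rats, 1 array per animal. The probe sets taken were those that the platform annotation gives to 1 of these symbols and to no other. This left 6 of the 8 genes, with 8 probe sets, out of 9378 genes that have a probe set of their own on the array. Ccnd1 has 3 probe sets and Mybl1, Tk1, Pcna, Cks2 and Stmn1 have 1 each, while Mcm6 had none and Hmgb2 shared its probe set with other symbols. The genes were selected on the difference in signal between the dosed and the control livers, so their own differences are given as a description, without a test.

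The 5 rats of the dosed group received RG3487 at 180 mg/kg by gavage, and the 5 control rats received deionized water as vehicle, both in 5 ml/kg. RG3487 is known as a ligand of nicotinic and serotonin receptors. The rats were 6 to 8 weeks old, and liver was taken 24 h after the dose per the sample labels, where the series text names 2 h. Animals were housed in groups of 5, how housing groups lay across the treatments is not given in the sources used here, and neither is sex. Each array gives a MAS5 signal per probe set, a background-adjusted brightness on a linear scale. Array means lay between 330 and 332, array medians were 92 to 96 in RG3487 livers and 85 to 91 in vehicle livers. With 1 array per animal, precision is set by how many arrays there are. Defining hepatocyte genes were bright in every liver: albumin (Alb) averaged 6895 ± 728 in RG3487 livers and 6959 ± 433 in vehicle livers (SD, n = 5 each). Of 9 hepatocyte genes 5 were called lower in RG3487 livers and 0 higher by limma at an adjusted p under 0.05. Over all genes 7.4% were lower and 22.3% higher. At an unadjusted p under 0.05, 8 were lower and 0 higher, beside 863 lower and 2461 higher of 7727 genes. Among Alb, Ttr, Cps1 and Cyp2e1 the groups were apart for Ttr and Cps1, which encode transthyretin and a urea cycle enzyme. Of all probe sets 18.4% had groups apart, in either direction.

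In the adult liver most hepatocytes rest outside the cell cycle and can re-enter it after injury or loss of tissue. Cyclin D1, encoded by Ccnd1, activates the kinases that phosphorylate the retinoblastoma protein, which releases E2F factors to switch on genes of DNA synthesis such as Tk1, Pcna and the Mcm genes. Genes of the later phases are switched on through the MuvB complex with B-MYB (Mybl2) and FOXM1, often at promoters that carry CCAAT boxes and a short element called CHR. Mybl1 encodes A-MYB, a relative of B-MYB best known for its role in male meiosis.

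Mybl1 stood far apart from the other members. Its signal was 408, 187, 107, 340 and 299 in RG3487 animals 1 to 5, against 27, 37, 13, 31 and 13 in vehicle animals 1 to 5. The groups did not overlap, and the lowest RG3487 liver, animal 3, lay well above the highest vehicle liver. The means were 268 ± 121 in RG3487 livers and 24.2 ± 10.8 in vehicle livers (SD, n = 5 each), a ratio of 11.1. On the scale of log2(signal + 16), where the added 16 steadies dim signals, the difference was 2.74 ± 0.30 (SE), or 6.67-fold. The fold moved with the added constant, to 10.5 with a constant of 1 and 3.56 with 64. The mean log2 signal of the vehicle livers, 5.28, lay below the limit of 5.81 under which the dimmest 25% of probe sets were left out of testing, so the probe set passed that limit through the RG3487 livers.

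**Figure D1:**
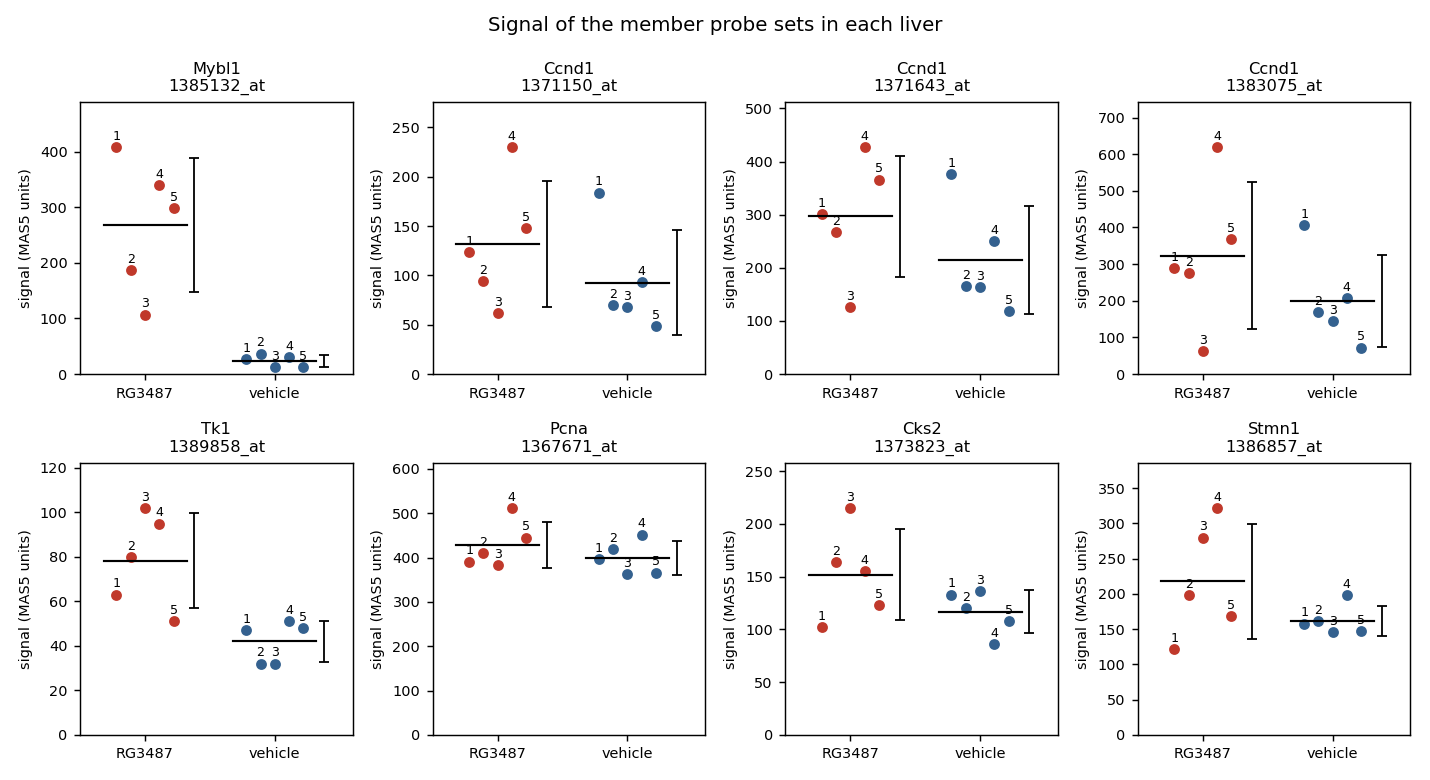
Signal (MAS5 units, linear axis from 0) of the 8 member probe sets in each liver, with RG3487 animals at the left and vehicle animals at the right of each panel, numbered by animal. Horizontal lines are group means and bars 1 SD (n = 5). The groups are apart for Mybl1 and overlap for the other members, and the 3 Ccnd1 panels show the same order of livers.

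Ccnd1, the G1 cyclin, varied more between animals than between groups. Its probe set with the highest mean log2 signal gave 301, 267, 126, 427 and 366 in RG3487 animals 1 to 5, against 376, 166, 164, 250 and 119 in vehicle animals 1 to 5. The dimmest probe set gave 62 to 230 in RG3487 livers, against 49 to 184 in vehicle livers. The remaining one had the widest range, 62 to 619 in RG3487 livers, against 72 to 407 in vehicle livers. All 3 probe sets put the livers in the same order within each group: animals 4, 5, 1, 2 and 3 from high to low with RG3487, and animals 1, 4, 2, 3 and 5 with vehicle. The spread therefore recurred in separate probe sets of the gene. In the order given here the log2 differences were 0.44 ± 0.32, 0.45 ± 0.32 and 0.55 ± 0.50 (SE), each below the SD of either group (0.60 to 1.12).

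Among the genes of DNA synthesis, Tk1 was higher in the RG3487 livers with a narrow overlap and Pcna was nearly level. Tk1, the thymidine kinase that salvages thymidine for replication, gave 63, 80, 102, 95 and 51 in RG3487 animals 1 to 5, against 47, 32, 32, 51 and 48 in vehicle animals 1 to 5. RG3487 animal 5 equalled the highest vehicle liver, and the other 4 lay above it. The log2 difference was 0.68 ± 0.16 (SE), or 1.61-fold. Pcna, the sliding clamp of DNA polymerases and also a known p53 target, gave 391, 410, 383, 512 and 445 in RG3487 animals, against 396, 419, 362, 452 and 366 in vehicle animals. Its groups overlapped almost fully, with a log2 difference of 0.10 ± 0.09 that was -1.5e-05 after quantile normalization.

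Cks2 and Stmn1, which act later in the cycle, both had RG3487 animals 2, 3 and 4 above animals 5 and 1, unlike Mybl1, which was highest in animal 1. Cks2, a small protein that binds cyclin-dependent kinases, gave 102, 164, 215, 155 and 123 in RG3487 animals 1 to 5, against 133, 120, 136, 86 and 108 in vehicle animals. Stmn1, which encodes the microtubule-destabilising protein stathmin, gave 122, 198, 280, 322 and 168 in RG3487 animals, against 158, 161, 146, 198 and 147 in vehicle animals. For both, RG3487 animal 1 was the lowest of the RG3487 livers and lay below the vehicle median, while RG3487 animals 3 and 4 lay above every vehicle liver. The log2 differences were 0.32 ± 0.17 for Cks2 and 0.33 ± 0.20 for Stmn1 (SE), within the SD of the RG3487 livers (0.37 and 0.52). The probe set that Hmgb2 shares, annotated with 4 symbols and therefore left out of the members, gave 89, 149, 251, 190 and 141 in RG3487 animals, against 94, 101, 156, 118 and 89 in vehicle animals.

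All 8 member probe sets passed the filter on dim probe sets and had a positive difference, with a median of 0.45 on the log2 scale beside 0.08 over all 11894 probe sets tested. In limma's fit over the whole table, 2 of the 8, those of Mybl1 and Tk1, reached a Benjamini-Hochberg adjusted p under 0.05, where 27.7% of all probe sets tested did, 20.5% higher and 7.16% lower. Of the 8, 1 had groups that did not overlap, beside 18.4% of all probe sets, 13.9% with RG3487 higher. The members were picked with this contrast in view, so nothing is read from these counts.

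Of the measured members, Tk1, Pcna, Cks2 and Stmn1 were matched by symbol to RefSeq promoter windows (build GRCr8). The 150 bases before each start site are shown because they place the later-cycle genes beside the DNA synthesis genes. Capitals mark CCAAT boxes (CCAAT), CHR elements (TTTGAA or TTTAAA) and E2F sites (TTTNGCGC), searched on both strands.
Cks2, chr17:13727520-13727669, minus strand: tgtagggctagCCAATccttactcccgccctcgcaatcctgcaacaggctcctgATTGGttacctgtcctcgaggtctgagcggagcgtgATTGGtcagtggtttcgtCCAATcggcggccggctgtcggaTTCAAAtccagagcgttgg
Stmn1, chr5:151965029-151965178, plus strand: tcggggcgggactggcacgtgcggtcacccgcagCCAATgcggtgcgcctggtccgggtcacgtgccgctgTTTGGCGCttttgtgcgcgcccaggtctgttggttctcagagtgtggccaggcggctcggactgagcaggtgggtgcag
Tk1, chr10:103544778-103544927, minus strand: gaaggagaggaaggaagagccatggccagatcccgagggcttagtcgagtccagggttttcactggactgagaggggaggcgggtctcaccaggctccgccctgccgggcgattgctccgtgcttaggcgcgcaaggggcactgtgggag
Pcna, chr3:139955821-139955970, minus strand: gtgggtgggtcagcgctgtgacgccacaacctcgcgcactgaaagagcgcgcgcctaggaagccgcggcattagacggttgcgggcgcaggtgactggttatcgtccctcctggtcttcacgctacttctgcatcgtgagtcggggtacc
The Cks2 window held 4 CCAAT boxes, on either strand, and a CHR element at positions -19 to -14 from the start. The Stmn1 window held a CCAAT box at -116 to -112 and an E2F site at -79 to -72. The Tk1 and Pcna windows held none of these letters. For Tk1 and Stmn1 the start used by the promoter table lies inside the outer bounds of the gene in the RefSeq gene table, so other starts are annotated. Among 33469 promoter windows of the same length, 23.5% held a CCAAT box, 15% a CHR element and 0.672% this E2F site. The short core AACNG, which MYB proteins can bind and which is not in capitals, was in the Cks2, Stmn1 and Pcna windows and in 56.5% of all windows, and 1 of its matches in Stmn1 (-82 to -78) overlapped the E2F site. These are matches of letters, not measured sites.

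The probe set whose profile over the 10 livers was most like that of Mybl1, among 9881 probe sets with 1 symbol, belonged to the gene next to it on chromosome 5. Likeness was the root mean square difference between profiles scaled to equal mean and spread, and it was 0.136 for Vxn, which encodes vexin, a protein known from neural development in other vertebrates. Vxn gave 555, 235, 84, 298 and 419 in RG3487 animals 1 to 5, against 20, 40, 12, 31 and 8 in vehicle animals. Its RG3487 livers had animal 1 highest and animal 3 lowest, as with Mybl1. The next most alike were Mdm2 (0.155), which encodes the ligase that degrades p53, Rangap1 (0.156), an activator of the GTPase Ran, Morf4l2 (0.160), a chromatin protein, and Rps27l (0.161), a known p53 target. These 5 share the contrast with Mybl1, so likeness here includes the difference between the groups. The other members ranked between 2829 for Tk1 and 5478 for Cks2 of 9881.

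Other genes at the same locus did not share the size of the difference. In the order of the GRCr8 annotation the protein-coding genes run Sgk3, Vcpip1, Mybl1, Vxn, Adhfe1 and Rrs1. Vcpip1, a deubiquitinase gene on the other side of Mybl1, averaged 150 ± 25 in RG3487 livers and 106 ± 5 in vehicle livers (log2 difference 0.44 ± 0.10 SE, limma adjusted p = 0.00709). Adhfe1, a mitochondrial dehydrogenase gene beyond Vxn, fell (log2 difference -0.37 ± 0.06, adjusted p = 0.00146), and Rrs1, a gene of ribosome assembly, rose (0.53 ± 0.14, adjusted p = 0.0148). Sgk3, a kinase gene, averaged 83.2 in RG3487 livers and 79.2 in vehicle livers and did not pass (adjusted p = 0.825). Whether the Mybl1 and Vxn probe sets read separate transcripts was not tested, since probe positions were not used here.

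**Figure D2:**
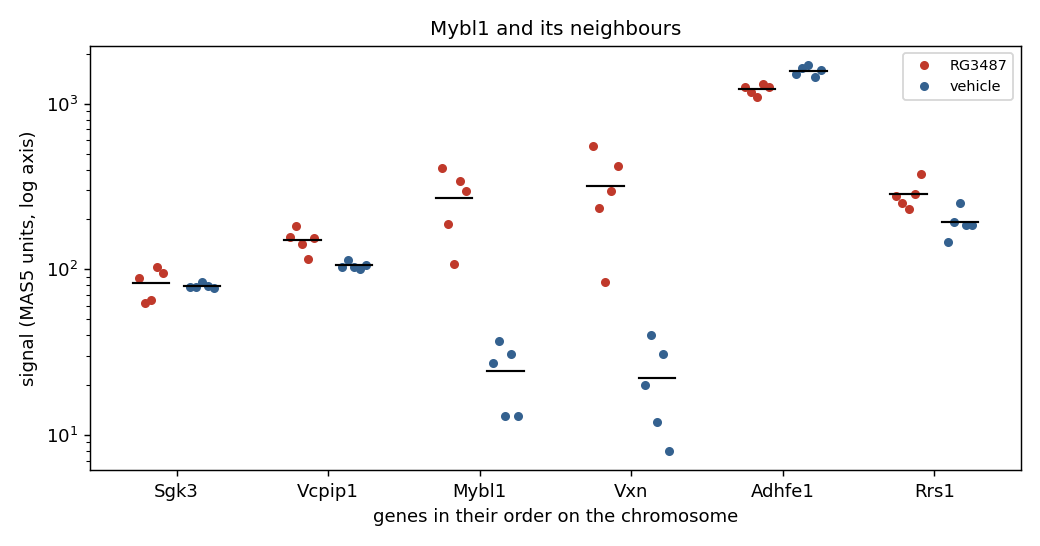
Signal (MAS5 units, log axis) in each liver for Mybl1 and 5 neighbouring protein-coding genes in chromosome order, RG3487 left of vehicle, with group means as lines. Mybl1 and Vxn are the pair with means of 268 and 318 in RG3487 livers against 24.2 and 22.2 in vehicle livers.

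No pair of Mybl1 with another member passed correction when livers were compared within their groups. Deviations of each liver from its group mean were compared, a measure that the difference between the groups does not enter, and p came from every arrangement of animals within groups (exact, two-sided), adjusted over 5 pairs. Mybl1 and Ccnd1 had Pearson r = 0.73 (exact p = 0.0274, adjusted p = 0.105) and Spearman rho = 0.63 (exact p = 0.0569, adjusted p = 0.136), over n = 10 livers. Mybl1 and Cks2 had r = -0.73 (exact p = 0.0418, adjusted p = 0.105) and rho = -0.67 (exact p = 0.0518, adjusted p = 0.136). Without the 2 animals farthest from the median of Mybl1, r was 0.46 and -0.44. That omission narrows the range of Mybl1, which can by itself bring r closer to 0. Whether the relations depended on those livers therefore cannot be told from it. For Pcna r was 0.59 (exact p = 0.11, adjusted p = 0.183) and rho 0.61 (exact p = 0.0817, adjusted p = 0.136), and r was 0.39 without those 2 animals. For Tk1 r was -0.41 (exact p = 0.329, adjusted p = 0.411) and rho -0.28 (exact p = 0.493, adjusted p = 0.616), with -0.36 after the same omission. For Stmn1 r was -0.30 (exact p = 0.553) and rho -0.10 (exact p = 0.825), with -0.09 after it. These r pool both groups, since 5 livers are too few for an r per group. Taken per group the sign was the same in RG3487 and vehicle livers for Ccnd1, Pcna and Cks2, with Cks2 closer to 0 in vehicle livers. For Stmn1 r was -0.48 in RG3487 livers and 0.67 in vehicle livers, and for Tk1 -0.58 and 0.02. Vehicle signals of Mybl1, 13 to 37, lay under the signal of 40.2 that equals the filter limit, so their deviations are those of dim signals. Over all 15 pairs of members, 10 of them added after the values were seen, no adjusted p lay under 0.2.

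**Figure D3:**
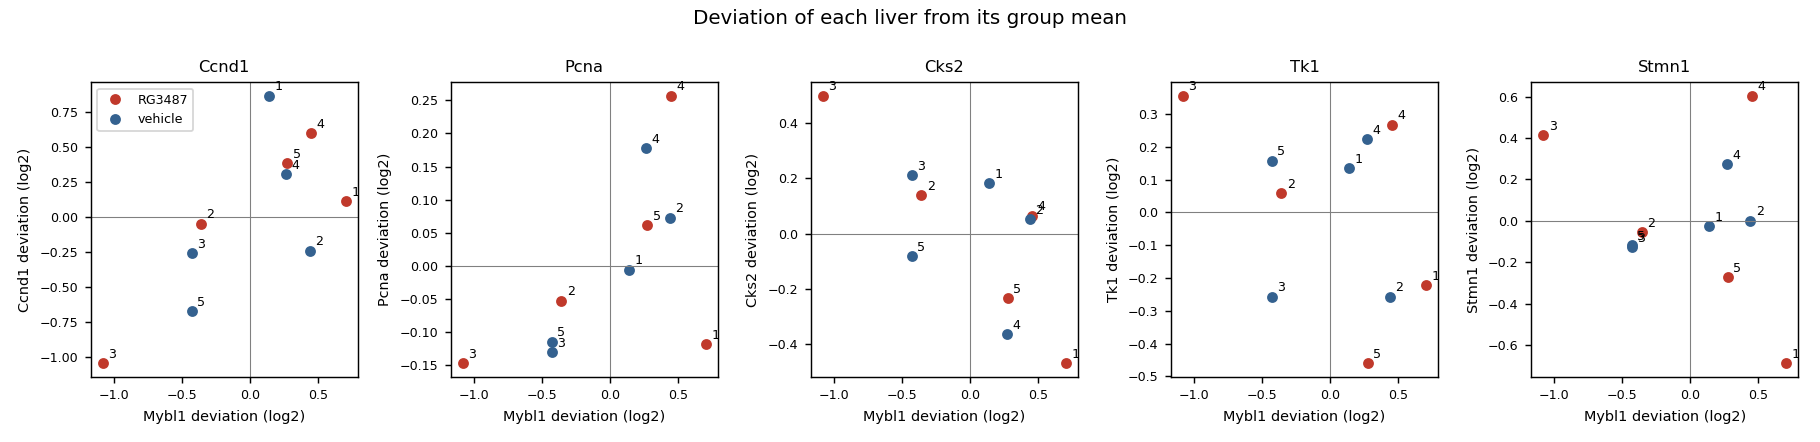
Deviation of each liver from its group mean on the log2(signal + 16) scale, Mybl1 on the horizontal axis and Ccnd1, Pcna, Cks2, Tk1 and Stmn1 on the vertical axes, numbered by animal. RG3487 animal 3 is the lowest point for Mybl1 and Ccnd1 and the highest for Cks2 and Tk1.

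High values in RG3487 animals 3 and 4 and low values in animal 1, as for Cks2 and Stmn1, recurred across genes of G2 and mitosis that the filter had removed, a pattern noticed after the values were seen. Of 33 such genes with a probe set of their own, members left out, 29 lay below the filter on dim probe sets. Ccnb1, the cyclin of mitotic entry, gave 16, 57, 152, 80 and 37 in RG3487 animals 1 to 5, against 20, 19, 25, 17 and 13 in vehicle animals. Cdk1, its kinase partner, gave 4, 52, 135, 94 and 32 in RG3487 animals, against 20, 9, 17, 16 and 5 in vehicle animals. In both genes RG3487 animal 3 was highest and animal 4 next, while animal 1 lay within or below the vehicle range. Top2a, the topoisomerase that untangles chromosomes, gave 16, 41, 85, 52 and 27 in RG3487 animals, against 17, 14, 14, 9 and 9 in vehicle animals. Mki67, the classical proliferation antigen, gave 6, 27, 79, 42 and 19 in RG3487 animals, against 10, 12, 10, 6 and 6 in vehicle animals. These 4 genes were picked after their values were seen.

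Over the 33 genes the median signal was 15, 39, 83, 53 and 30 in RG3487 animals 1 to 5, against 20, 15, 20, 17 and 12 in vehicle animals. RG3487 animal 3 was the highest of its group in 28 of the 33, where it was highest in 21.6% of all 9378 genes, and animal 1 was the lowest or tied lowest in 29. The exceptions to the first count were Bub3, Mad2l1, Racgap1, Smc2 and Smc4. RG3487 animals 3 and 4 each exceeded every vehicle liver in 32 of the 33 genes and animal 1 in 8, whereas each RG3487 animal did so in 31.3% to 37.2% of all genes. The 33 genes rise and fall together in dividing cells, so they are not independent. The mean signal was higher in RG3487 livers for all 33, with a median log2 difference of 0.69 beside 0.08 over all genes without the filter.

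Without the filter, 15 of the 33 genes (45.5%) rose and 0 fell by limma at an adjusted p under 0.05, beside 17.7% of all genes higher and 6.05% lower, and at an unadjusted p under 0.05 also 0 were lower. Examples are Spc24, a kinetochore gene (log2 difference 1.49 ± 0.28 SE, adjusted p = 0.0029), Kif20a, a kinesin of cell division (1.31 ± 0.28, adjusted p = 0.00599), Aurka, a mitotic kinase (0.86 ± 0.18, adjusted p = 0.00513) and Ccna2, a cyclin of S and G2 phase (1.15 ± 0.32, adjusted p = 0.0216). Vehicle signals of these genes lay far under the filter limit of 40.2, so the size of these differences depends on the added 16. Cdk1 and Mki67 did not pass (1.15 ± 0.42, adjusted p = 0.0706, and 0.86 ± 0.30, adjusted p = 0.0554). The count was 24 without RG3487 animal 1 and 10 without RG3487 animal 3. It fell to 6 without RG3487 animal 4, 9 without vehicle animal 2, 9 without vehicle animal 4 and 8 without vehicle animal 5. The share of all genes called in each of these fits is not given here. How far the counts depend on single animals therefore cannot be told from them. In whole liver, more dividing cells and more RNA per cell cannot be told apart.

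**Figure D4:**
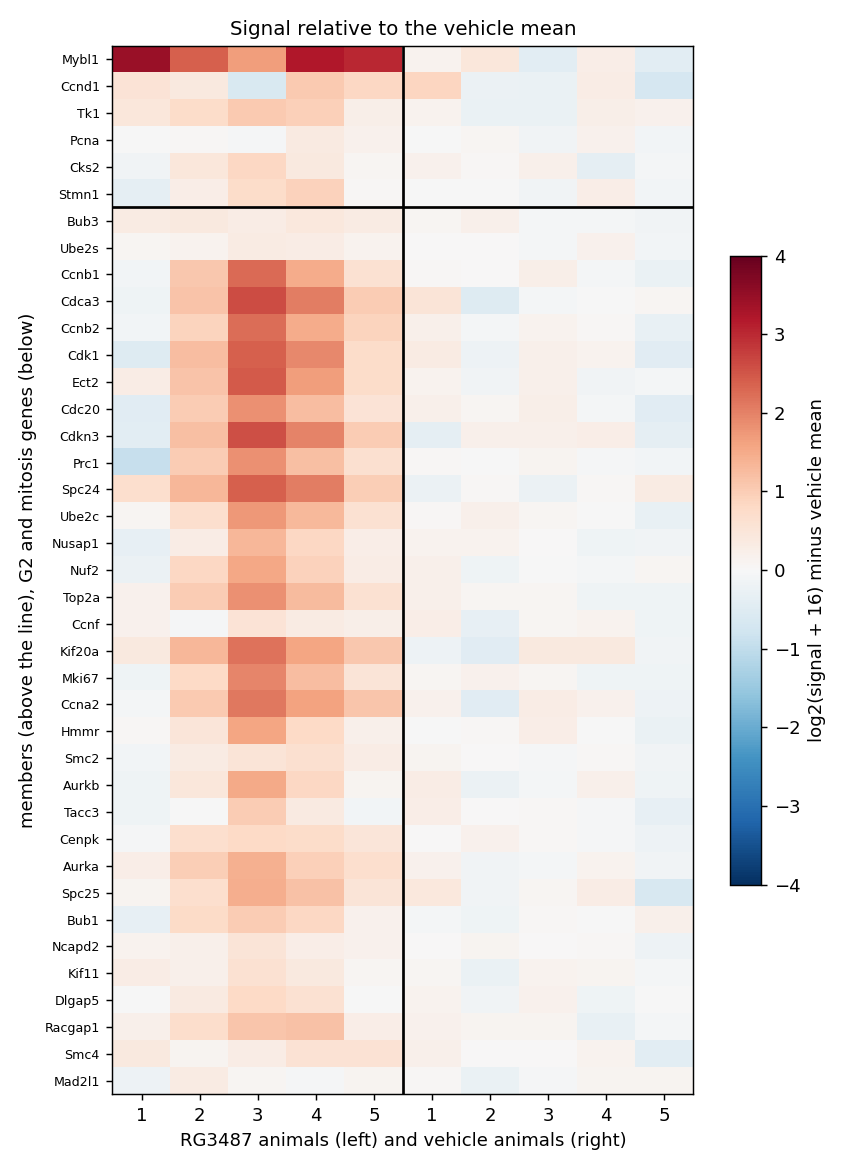
Colour gives log2(signal + 16) of each liver minus the vehicle mean, for the 6 measured members (above the line, 1 probe set each) and 33 genes of G2 and mitosis (below), with RG3487 animals at the left and vehicle animals at the right. In most rows below the line RG3487 animal 3 is the deepest red, animal 4 next and animal 1 close to the vehicle livers, whereas Mybl1 is deepest in animals 1, 4 and 5.

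Promoter letters of the G2 and mitosis genes were set beside those of the members. Of 29 of the 33 genes with a RefSeq window, 22 held a CCAAT box in the 150 bases before the start, 20 a CHR element and 16 both, as the Cks2 window does. Among all windows 3.68% held both. The E2F letters found in Stmn1 were in 1 of the 29.

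Markers of other cell types did not follow that order of animals. The summed signal of 6 lymphocyte markers was 723 to 1318 in RG3487 livers and 1005 to 1253 in vehicle livers, and RG3487 animal 3 had the lowest sum of all. The sum of 12 myeloid and Kupffer cell markers was 5155 to 6177 in RG3487 livers and 5780 to 6686 in vehicle livers, again lowest in RG3487 animal 3. The sums were 2784 to 3752 and 2896 to 4219 for 3 erythroid markers, 2179 to 2566 and 2551 to 2838 for 7 endothelial markers, and 1971 to 2300 and 1777 to 2346 for 12 stellate cell and fibroblast markers, in RG3487 and vehicle livers in turn. Among RG3487 livers the erythroid and stellate sums were lowest in animal 1, and the endothelial sum was highest there. The 3 bile duct markers summed to 154 to 294 in RG3487 livers and 122 to 204 in vehicle livers, highest in RG3487 animal 3. The 9 hepatocyte genes summed to 52413 to 59961 in RG3487 livers and 62502 to 66293 in vehicle livers, and within RG3487 livers were highest in animal 3. None of these markers was at 0 in every liver, and none of the 14 listed germ cell markers had a probe set of its own. A sum leans to its brightest markers, and the part of cell composition in the members' values was not tested beyond these sums.

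The rest of the cell cycle machinery was taken from 8 lists, members left out, in which 91 genes passed the filter. Of these 27 (29.7%) rose and 4 (4.4%) fell, beside 22.3% of 7727 genes higher and 7.4% lower. The median log2 difference was 0.14 beside 0.09 over all genes. Of the calls 87.1% were higher, beside 75.1% over all genes. After quantile normalization 21 rose and 7 fell (75.0% higher, beside 56.5% over all genes), and with arrays centred on the median 20 rose and 7 fell (74.1%, beside 53.4%). The hybridization controls had a mean log2 signal of 9.61 to 9.68 on RG3487 arrays and 9.80 to 9.89 on vehicle arrays. A difference in array scale and one in treatment therefore cannot be told apart by them. With arrays scaled to these controls, which moved the median of all genes to 0.28, 51 rose and 3 fell. Thus 56.0% of the listed genes rose, beside 56.1% of all genes, and 94.4% of the calls were higher, beside 94.6%.

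Genes of DNA replication and nucleotide supply, the set Tk1 and Pcna belong to, rose in 9 of 18 and fell in 0 (0 also at an unadjusted p under 0.05), with a median of 0.31. Over all genes 22.3% rose and 7.4% fell. Dut, which clears dUTP from the nucleotide pool, averaged 384 ± 30 in RG3487 livers and 254 ± 28 in vehicle livers (log2 difference 0.57 ± 0.08 SE, limma adjusted p = 0.000532). Rpa3, a subunit of the single-strand binding complex, rose by 0.32 ± 0.06 (adjusted p = 0.00328). The clamp loader genes Rfc4 and Rfc1 rose by 0.50 ± 0.11 and 0.35 ± 0.08 (adjusted p = 0.00511 and 0.00681). The count was 6 with quantile normalization, 5 with centred arrays and 14 with hybridization control scaling, with 0 lower in each, where 13.2%, 12.8% and 56.1% of all genes were higher.

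Chromatin and cytoskeleton genes that are high in dividing cells, the set Stmn1 belongs to, also rose in 9 of 18 and fell in 0 (0 also unadjusted), with a median of 0.27. Over all genes 22.3% rose and 7.4% fell. The count was 8 with quantile normalization, 8 with centred arrays and 12 (66.7%) with hybridization control scaling, with 0 lower in each. Of all genes 13.2%, 12.8% and 56.1% were higher in those settings. Tubb4b, a beta tubulin, averaged 1212 ± 135 in RG3487 livers and 662 ± 40 in vehicle livers (0.85 ± 0.08, adjusted p = 3.98e-05). Hmgn2, a nucleosome binding protein, rose by 0.63 ± 0.07, Rangap1 by 0.64 ± 0.09 and the GTPase gene Ran by 0.61 ± 0.09 (adjusted p = 0.000146, 0.000503 and 0.000585). The groups did not overlap for these 4 genes, beside 18.4% of all probe sets, 13.9% with RG3487 higher. The 4 were named for the smallest p of their list, so nothing is read from that. The order of RG3487 animals differed among them. Hmgn2 was highest in animal 3, next in animal 4 and lowest in animal 1, as for mitotic genes, Tubb4b was highest in animal 4, and Rangap1 and Ran were lowest in animal 3.

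**Figure D5:**
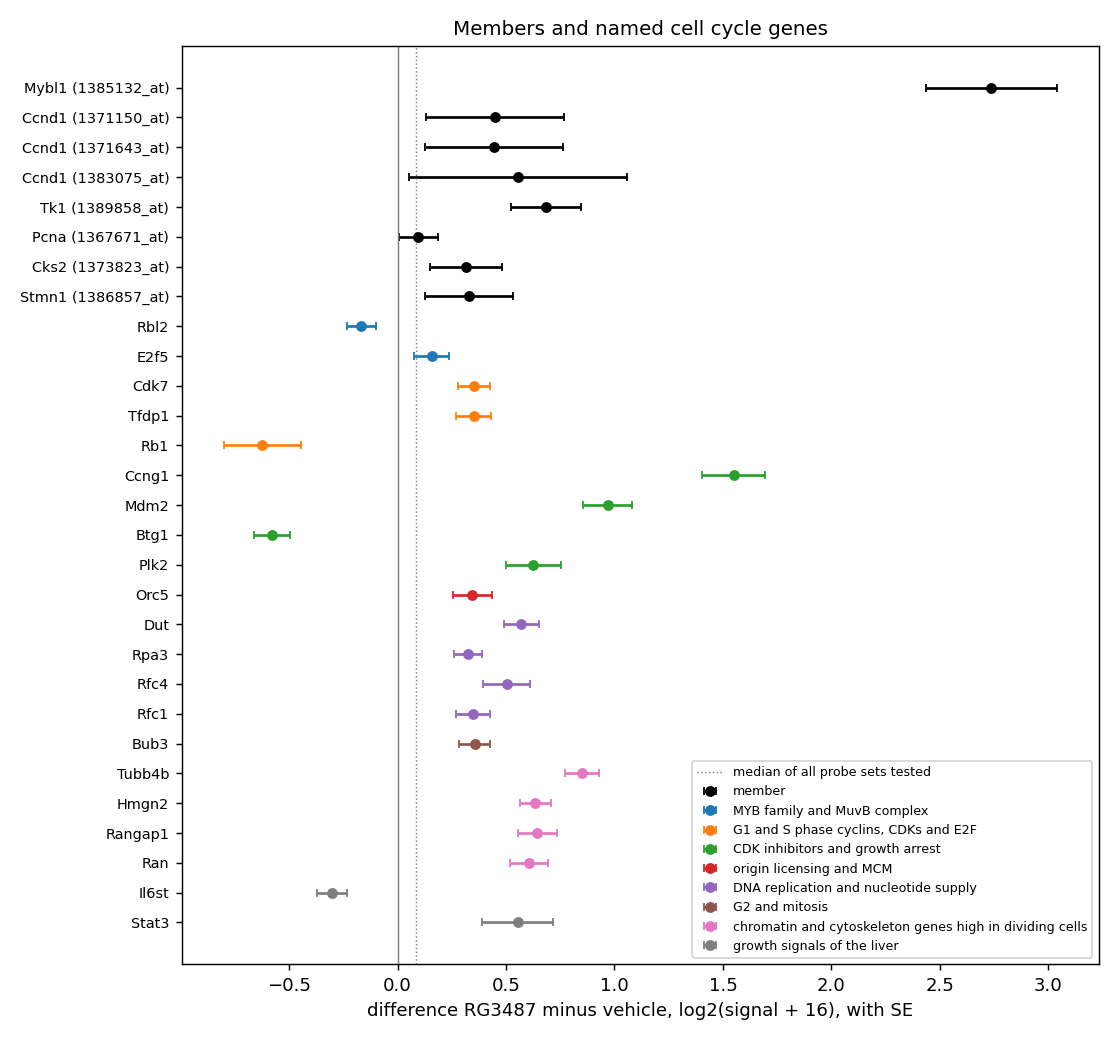
Difference RG3487 minus vehicle on the log2(signal + 16) scale with SE (n = 5 per group) for the 8 member probe sets (black) and the named genes of 8 cell cycle lists (coloured by list). The dotted line is the median of all probe sets tested, 0.08, and Mybl1 at 2.74 lies beyond the named genes, of which Ccng1 is next.

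Origin licensing genes, the set of Mcm6, rose in 1 of 6 (Orc5, a subunit of the origin recognition complex, 0.34 ± 0.09, adjusted p = 0.0136) and fell in 0 (0 also unadjusted). Of the G2 and mitosis genes only 4 passed the filter besides Cks2, of which 1 (25%) rose and 0 fell. The 1 was Bub3, a checkpoint gene (0.36 ± 0.07, limma adjusted p = 0.00363). Among G1 and S phase regulators 2 of 10 rose and 1 fell. For this list and those of origin licensing and of G2 and mitosis, the shares over all genes were 22.3% higher and 7.4% lower. Cdk7, the kinase that activates other cyclin-dependent kinases, rose by 0.35 ± 0.07 (adjusted p = 0.00404) and Tfdp1, the partner of E2F factors, by 0.35 ± 0.08 (adjusted p = 0.00755). Rb1, which encodes the retinoblastoma protein, changed by -0.62 ± 0.18 (adjusted p = 0.0221), a call lost without RG3487 animal 2 (adjusted p = 0.0538) or vehicle animal 5 (adjusted p = 0.0526).

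In the MYB family and MuvB complex 6 genes besides Mybl1 were tested, of which 0 rose and 0 fell by limma (adjusted). Over all genes 22.3% rose and 7.4% fell, and with 6 genes little can be read from the count. At an unadjusted p under 0.05 only Rbl2 was lower. Rbl2, which encodes the pocket protein p130 of resting cells, changed by -0.17 ± 0.07 (adjusted p = 0.0864), and E2f5 by 0.16 ± 0.08 (adjusted p = 0.168). Rbl2 passed as lower with quantile normalization (limma adjusted p = 0.0281), with centred arrays (0.0268) and without RG3487 animal 3 (0.0307). With hybridization control scaling 2 genes of the list (33.3%), E2f5 among them (0.00457), passed as higher, beside 56.1% of all genes. Mybl2 was dim, at 31, 25, 4, 5 and 17 in RG3487 animals 1 to 5, against 7, 10, 6, 10 and 25 in vehicle animals, and did not share the order of the mitotic genes. Myb had no probe set of its own.

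Among genes of cell cycle arrest 4 of 15 rose (26.7%, beside 22.3% of all genes) and 2 fell (13.3%, beside 7.4%), shares near the background. Ccng1, a cyclin induced by p53, averaged 576 ± 150 in RG3487 livers and 182 ± 14 in vehicle livers (2.93-fold, adjusted p = 4.87e-05), and Mdm2 rose by 0.97 ± 0.11 (adjusted p = 0.000196). In both genes RG3487 animal 3 was the lowest of its group, as for Mybl1. Plk2, a stress-responsive kinase, rose by 0.63 ± 0.13 (adjusted p = 0.0037). Btg1, an antiproliferative gene, fell by 0.58 on the log2 scale, to 2725 ± 361 in RG3487 livers against 4064 ± 323 in vehicle livers (adjusted p = 0.000655). Among RG3487 livers Plk2 was lowest in animal 4, at 333, and Btg1 was highest in animal 3, at 3319.

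Of 14 growth signal genes 1 rose and 1 fell (7.14% each, beside 22.3% and 7.4% of all genes). With quantile normalization 0 rose and 3 fell, where 13.2% of all genes were higher and 10.1% lower, and with centred arrays the counts were the same, beside 12.8% and 11.2%. With hybridization control scaling 6 rose and 0 fell, beside 56.1% and 3.21%. Stat3, a transducer of cytokine signals that prime hepatocytes, changed by 0.55 ± 0.16 (adjusted p = 0.0263), a call lost with quantile normalization (0.0757), with centred arrays (0.0574) and without RG3487 animal 1, 3 or 5 or vehicle animal 2 (0.0596, 0.0512, 0.0543 and 0.0504). Il6st, which encodes the shared receptor subunit gp130, changed by -0.30 ± 0.07 (adjusted p = 0.00756), a call lost with hybridization control scaling (0.264).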

How the data were processed

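The signal intensities were made by the authors with MAS5, per the submitters' processing notes, and deposited as whole numbers on a linear scale (version and scaling target not given in the sources used here). Labelling started from 1 ug of total RNA, per the labels' protocols. Signals were analysed as log2(signal + 16). The 40 control probe sets and the dimmest 25% by mean were left out, which left 11894 of 15899. Groups were compared with limma 3.58.1 in R 4.3.3 (lmFit, eBayes with trend, no block), adjusted by Benjamini-Hochberg over all probe sets tested. A gene is its brightest retained probe set. The fit and the exact test were tested on simulated data. Of 12562 probe sets with 1 symbol, 12528 were matched to the RefSeq table by Entrez ID, and none of those symbols changed. Samples were grouped by title.

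The members and the gene lists were chosen with earlier results of these data known. Genes named are the members, the 4 called genes of each list with the smallest p (2 where none was called), the MYB genes and the 5 profiles most like that of Mybl1. Others were chosen after their values were seen. Alternatives were other pseudocounts, scalings and filters, eBayes without trend, the replicate number as a block and each animal left out. The p-values measure the spread between animals of 1 experiment.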

Additional observations from a re-analysis of the deposited data

Results flagged for a closer look

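Among 64 groups of 5 livers checked with Dixon's ratio, which flags about 1 group in 20 by chance, 2 held a single far value. For Rbl2 vehicle animal 5 was low, at a signal of 304 where the other vehicle livers were at 321 to 327 (ratio 0.746). For Rangap1 RG3487 animal 3 was low, at 214 where the other RG3487 livers were at 266 to 287 (ratio 0.739).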

How the results depend on the processing

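The log2 difference of Mybl1 came to 3.39 under pseudocount 1, to 1.83 under pseudocount 64, and to 2.56 to 3.01 when any 1 animal was omitted. A filter at 50% removed Mybl1 itself, so that setting gave no value for it. The 27 higher cell cycle genes of 91 (29.7%) became 51 (56.0%) with hybridization control scaling (24 to 28 with 1 animal left out). With no filter the count was 44 of 150 (29.3%), a near equal share of more genes. Over all genes 22.3% were higher with the filter and 17.7% without it. The 4 lower ones became 7 with quantile normalization and 7 with centred arrays (3 to 6). The 15 higher G2 and mitosis genes without the filter became 29 with hybridization control scaling and 10 with centred arrays. Their count was 13 with pseudocount 1, 13 with eBayes without trend, and 6 to 24 with 1 animal left out. Under hybridization control scaling 56.1% of all genes that passed the filter were higher, a share that belongs beside the 51 and not the 29. For the fits of the G2 and mitosis genes without the filter, the share of all genes in these other settings is not given here. The cause of the shifts in these counts was not tested. Pcna turned to -1.5e-05 with quantile normalization. For the 5 pairs with Mybl1, leaving out 1 animal gave r of 0.47 to 0.82 for Ccnd1, -0.59 to -0.10 for Tk1, 0.49 to 0.90 for Pcna, -0.80 to -0.51 for Cks2 and -0.65 to 0.06 for Stmn1, and neither quantile normalization, centring nor another pseudocount brought an adjusted p under 0.05. The replicate number as a block gave 26 higher and 6 lower cell cycle genes and 17 G2 and mitosis genes. Same-numbered animals correlated at -0.04 to 0.17 in their deviations, 1 of 5 pairs above 0.1, so the numbers were not taken to pair the animals, and the block moved the calls over all probe sets to 2918, against 3295 without it. Over 24 tested genes, 439 recomputed values kept direction and side of the threshold, 9 lost the call (Rb1, Il6st and Stat3), 4 gained it (Rbl2 and E2f5), and Rbl2, not called, turned to 0.027 with hybridization control scaling. Over the 7 other member probe sets, which have no test, 130 values kept direction and moved by less than the SD, and Pcna moved to 0.29 with hybridization control scaling. Signals near the filter limit of 40.2 limit what the mitotic genes can show.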
